A study of Homo sapiens with 6 samples.

Results

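The androgen synthesis and reduction enzymes AKR1C1, AKR1C2, AKR1C3, HSD3B1, HSD3B2, HSD17B3, HSD17B4, HSD17B6, SRD5A1 and SRD5A3 were analysed in the parental prostate cancer cell line C4-2B and its taxane-resistant derivative RC4-2B. The genes were taken by exact match of the gene name, and all 10 were found among the 58735 genes of the expression tables. C4-2B is an established line of castration resistant prostate cancer. RC4-2B is a single subclone of it, obtained through cycles of 72 h of cabazitaxel (CBZ), a taxane, with the concentration raised from 0.1 nM to 20 nM over 4 months. RNAseq was performed on 3 biological replicates of each line, grown for 72 h with no drug named for that time. The sample labels give 10% fetal bovine serum as the supplement, whereas the methods of the study name both charcoal-stripped serum, which is depleted of steroids, and fetal bovine serum. The steroid content of the medium is therefore not settled for these libraries. The question addressed here is whether RC4-2B cells differ from the parental cells in the transcripts of the enzymes that make, reduce and inactivate androgens.

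Prostate cancer cells that grow after castration can make potent androgens from adrenal precursors. The 3-beta-hydroxysteroid dehydrogenases HSD3B1 and HSD3B2 turn dehydroepiandrosterone into androstenedione, AKR1C3 and HSD17B3 reduce androstenedione to testosterone, and steroid 5-alpha-reductases such as SRD5A1 turn androstenedione and testosterone into 5-alpha-reduced androgens, of which dihydrotestosterone is the most potent. AKR1C1 and AKR1C2 inactivate dihydrotestosterone by reducing its 3-keto group, and HSD17B6 can oxidise the product of AKR1C2 back to dihydrotestosterone. HSD17B4 oxidises and so inactivates 17-beta-hydroxysteroids.

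The AKR1C genes lie side by side on chromosome 10 and are so alike in coding sequence that reads can match several of them. Their sequences are therefore shown before their values. Of the 969 coding bases of AKR1C1 and AKR1C2, 950 were identical (98.0%), and 475 of the 920 stretches of 50 bases in the AKR1C1 coding sequence (51.6%) also occurred in AKR1C2. AKR1C3 was 91.4% identical to AKR1C1 and 91.0% identical to AKR1C2, and shared 14.7% and 18.4% of such stretches with them. The main transcripts are longer, at 6543 bases for AKR1C1 and 3215 for AKR1C2. Likeness outside the coding bases was not measured. The first 60 coding bases of these genes and of the liver enzyme AKR1C4 are printed 5′ to 3′ from GRCh38 with the GENCODE release 44 annotation, with the 12 positions that are not the same in all 4 genes in capitals. They are at chr10:4963445-4963504 (plus strand), chr10:5003776-5003835 (minus strand), chr10:5094445-5094504 (plus strand) and chr10:5196868-5196927 (plus strand), each inside the first coding exon.
AKR1C1: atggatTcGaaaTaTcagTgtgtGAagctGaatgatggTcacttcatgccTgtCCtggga
AKR1C2: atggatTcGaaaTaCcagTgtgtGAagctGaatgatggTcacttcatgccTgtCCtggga
AKR1C3: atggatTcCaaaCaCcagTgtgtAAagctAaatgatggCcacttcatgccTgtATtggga
AKR1C4: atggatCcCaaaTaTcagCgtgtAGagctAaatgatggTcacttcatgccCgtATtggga
Within these 60 bases AKR1C2 differed from AKR1C1 at 1 position, AKR1C3 at 8 and AKR1C4 at 9. How the authors counted reads that match several genes is not given in the sources used here. The split of reads among AKR1C1, AKR1C2 and AKR1C3 is therefore uncertain, and their sum is given beside the single genes. Reads left out for matching several genes, if any were, would lower these levels, and the sum would not restore them. HSD3B1 and HSD3B2 were 93.5% identical over their coding sequences and shared 52 of 1070 stretches of 50 bases (4.9%).

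The promoter windows of the enzymes held 0 to 28 CG dinucleotides, and 4 are printed to show windows with many and with few. Each is the 250 bases before a RefSeq start on GRCh38.p14, written 5′ to 3′ on the gene's strand, with every CG dinucleotide in capitals, and RefSeq starts need not be the gene starts in the expression tables. CG reads the same on both strands, 93.9% of 35116 RefSeq windows of this length held at least 1, and the median window held 11. They are SRD5A1 at chr5:6633190-6633439 (plus strand), HSD17B3 at chr9:96302177-96302426 (minus strand), AKR1C1 at chr10:4963165-4963414 (plus strand) and AKR1C2 at chr10:5003858-5004107 (minus strand).
SRD5A1: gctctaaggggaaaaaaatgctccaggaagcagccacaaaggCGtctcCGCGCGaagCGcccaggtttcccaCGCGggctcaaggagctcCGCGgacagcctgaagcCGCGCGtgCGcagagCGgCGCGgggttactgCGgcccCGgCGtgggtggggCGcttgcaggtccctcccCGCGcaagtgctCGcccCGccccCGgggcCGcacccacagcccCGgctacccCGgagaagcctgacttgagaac
HSD17B3: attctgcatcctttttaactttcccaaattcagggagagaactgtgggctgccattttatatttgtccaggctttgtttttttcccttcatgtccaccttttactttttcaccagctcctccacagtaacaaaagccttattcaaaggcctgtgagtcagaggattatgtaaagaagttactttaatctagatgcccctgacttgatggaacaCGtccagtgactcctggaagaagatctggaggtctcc
AKR1C1: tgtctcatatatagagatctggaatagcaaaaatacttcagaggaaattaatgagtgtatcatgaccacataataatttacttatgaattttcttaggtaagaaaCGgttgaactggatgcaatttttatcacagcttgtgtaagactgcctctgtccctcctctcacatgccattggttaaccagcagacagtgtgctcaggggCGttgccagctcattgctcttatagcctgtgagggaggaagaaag
AKR1C2: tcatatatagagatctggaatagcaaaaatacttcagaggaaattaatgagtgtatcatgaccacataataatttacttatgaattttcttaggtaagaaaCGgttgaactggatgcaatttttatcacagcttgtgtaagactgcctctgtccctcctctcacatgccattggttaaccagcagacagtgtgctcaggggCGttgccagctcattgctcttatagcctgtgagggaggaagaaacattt
The SRD5A1 window held 28 CG dinucleotides, a number reached by 15.9% of all windows, and the SRD5A3 window held 23 (25.8% of windows) and the HSD17B4 window 14 (44.8%). AKR1C1 and AKR1C2 held 2 each, HSD3B2 and HSD17B3 held 1 each, and AKR1C3 and HSD3B1 held none in either of their 2 windows. The AKR1C1 and AKR1C2 windows were 99.6% identical over the 246 bases in which they could be aligned (245 identical). HSD17B6 had no entry in the promoter table.

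Depth was similar in all libraries, with 15707134 to 18052517 reads counted on genes, so that 3 reads in 1 library corresponded to 0.170 to 0.188 CPM (a gene's count relative to the library total after scaling by edgeR's TMM factors). Well-expressed genes differed between pairs of C4-2B libraries with a standard deviation of 0.13 to 0.19 on the log2 scale, and between RC4-2B replicates 1 and 3 with 0.22, whereas RC4-2B replicate 2 differed from those replicates by 0.59 and 0.52. The log2 difference of a gene between replicates varied with transcript GC content in both lines. Over 9568 genes, Spearman's rho was -0.76 for RC4-2B replicates 1 and 2. It was 0.69 for RC4-2B replicates 2 and 3 and -0.40 for replicates 1 and 3. In C4-2B it was -0.32 for replicates 1 and 2, -0.31 for replicates 1 and 3 and -0.06 for replicates 2 and 3. These values are a description, since genes are not independent. The longest transcripts of the 10 enzymes had a GC content of 36.4% (HSD17B4) to 48.3% (HSD3B1), against a median of 48.2% over the tested genes. Values from a fit with each library's GC trend removed, and values without the library that stands apart, are given where they bear on a call or a sign.

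The 10 enzymes spanned the range from the abundant to the undetected in both lines. On the FPKM scale, which divides counts by gene length and library size and so allows genes to be compared, HSD17B4 was the most abundant, at 17.3 to 23.3 FPKM over the 6 libraries. SRD5A3 followed at 5.80 to 8.29 FPKM, SRD5A1 at 3.30 to 4.35 FPKM and HSD17B6 at 0.538 to 1.39 FPKM, and none of these 4 ranges overlapped the next. HSD3B1 at 0.0841 to 0.326 FPKM, AKR1C2 at 0.0413 to 0.181 FPKM, AKR1C1 at 0.0244 to 0.0609 FPKM and AKR1C3 at 0 to 0.0617 FPKM overlapped their neighbours in this order. HSD3B2 was detected in 1 library and HSD17B3 in none. The gene lengths behind the FPKM values of HSD17B4 and AKR1C3 are 4.06 and 3.82 times those of the main transcripts in GENCODE release 44, and with the latter lengths the first 4 ranks stayed as they are, while AKR1C2 came before HSD3B1 and AKR1C3 before AKR1C1.

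**Figure D1:**
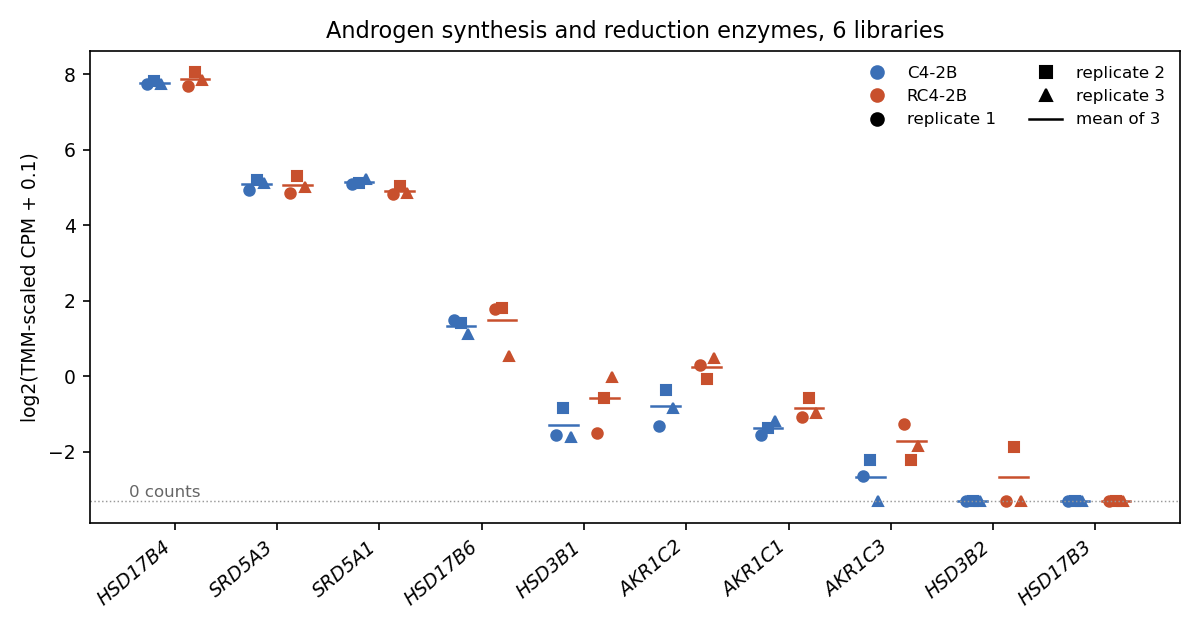
Level of each enzyme in each of the 6 libraries, as log2 of TMM-scaled CPM plus 0.1 (vertical axis), with genes ordered from left to right by their median FPKM and the mean of 3 libraries drawn as a line. HSD17B4, SRD5A3 and SRD5A1 lie far above the other genes in both lines, HSD17B6 lies between, the other genes lie lower, and HSD17B3 lies on the dotted line that marks 0 counts.

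HSD17B4, SRD5A3 and SRD5A1, the 3 genes above 3 FPKM in every library, were also those with 10 or more CG dinucleotides in the promoter window, a number reached by 52.2% of all windows. The 6 genes with at most 2 CG dinucleotides stayed at or under 0.326 FPKM in every library. These are 9 genes of 1 cell line and its subclone, and the relation is given as a description. The genes with few CG dinucleotides include the AKR1C and HSD3B paralogs, which are not separate observations.

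**Figure D2:**
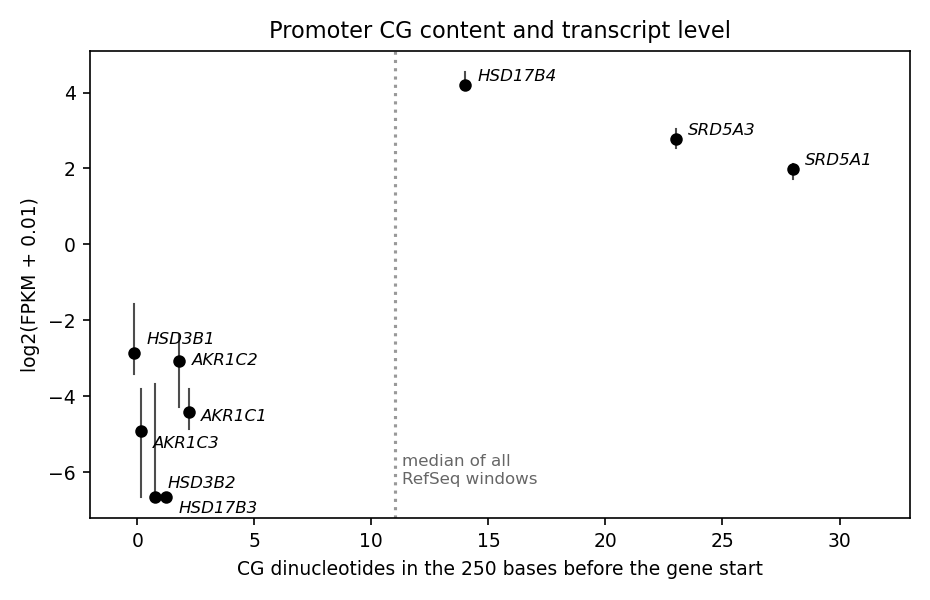
Number of CG dinucleotides in the 250 bases before the RefSeq start (horizontal axis) against log2 of FPKM plus 0.01 (vertical axis) for 9 enzymes, with the median of 6 libraries as a point and their range as a line. Genes with the same number are set slightly apart, for AKR1C3 and HSD3B1 both windows hold 0, and the dotted line marks the median of 11 over all windows. SRD5A1, SRD5A3 and HSD17B4 lie at the upper right and the AKR1C, HSD3B and HSD17B3 genes at the lower left.

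The enzymes that turn dehydroepiandrosterone into androstenedione were barely transcribed. HSD3B1 (ENSG00000203857, chr1:119507198-119515054), the form of peripheral tissues, had 4, 8 and 4 counts in C4-2B replicates 1 to 3 and 4, 10 and 15 counts in RC4-2B replicates 1 to 3. The lines overlapped, because RC4-2B replicate 1 lay within the C4-2B range and replicates 2 and 3 above it. The mean CPM was 0.306 ± 0.127 (SD, n = 3) in the parental line against 0.567 ± 0.316 (SD, n = 3) in the subclone, and the ratio of the pooled counts, 16 against 29, was 1.86 after scaling with an exact 95% interval of 0.979 to 3.67 that covers counting error only. HSD3B2, the form of the adrenal gland and gonads at chr1:119414931-119423035, had no count in any C4-2B library and 0, 3 and 0 counts in RC4-2B, so that no library rose above the floor of 3 counts. Neither gene reached the expression filter of the test. In a bulk culture, fewer cells with a transcript and less of it per cell cannot be told apart, and this holds for each of the low values given here.

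Of the enzymes that reduce androstenedione to testosterone, HSD17B3 (chr9:96235306-96302176), the enzyme of the testis, had 0 counts in all 6 libraries. Over the pooled libraries of a line this allows up to 0.0577 CPM for C4-2B and up to 0.0593 CPM for RC4-2B, from a limit of 3 counts. AKR1C3 (ENSG00000196139, chr10:5035354-5107686), which also makes prostaglandin F, had 1, 2 and 0 counts in C4-2B and 5, 2 and 3 counts in RC4-2B. In raw counts the lines met at 2, and in CPM the highest C4-2B value was 0.1132 and the lowest RC4-2B value 0.1140, a difference that library scaling alone makes. The ratio of pooled counts, 10 against 3, was 3.43 after scaling, with an exact 95% interval of 0.883 to 19.4. At this depth no difference of AKR1C3 between the lines was detectable.

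SRD5A1, the 5-alpha-reductase that acts on androstenedione in castration resistant cells, was lower in each RC4-2B library than in any C4-2B library in TMM-scaled CPM, but did not pass the test over all genes. Its counts (ENSG00000145545, chr5:6633343-6674386) were 571, 616 and 654 for C4-2B against 455, 574 and 489 for RC4-2B, or 34.1, 34.9 and 37.2 CPM against 28.5, 32.7 and 28.7 CPM. In FPKM the lines overlapped, with RC4-2B replicate 2 at 3.969 and C4-2B replicate 1 at 3.951 FPKM. In CPM the means were 35.4 ± 1.64 and 30.0 ± 2.39 CPM (SD, n = 3 each). RC4-2B was at 0.847 times the C4-2B level (95% interval 0.699 to 1.03), or -0.24 on the log2 scale (standard error 0.12). The adjusted p was 0.28 (edgeR's quasi-likelihood test, adjusted over all genes by Benjamini-Hochberg). Without RC4-2B replicate 2 the log2 fold change was -0.31 (edgeR adjusted p = 0.057). With each library's trend against GC content taken out of the fit it was -0.38 (edgeR adjusted p = 0.034), the single setting of 14 in which SRD5A1 passed the threshold of 0.05, and a setting that also removes any mean GC trend between the lines.

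SRD5A3, a polyprenol reductase needed for N-glycosylation to which 5-alpha-reductase activity has also been ascribed, did not differ detectably between the lines. It lies at chr4:55346109-55373096 and had 514, 640 and 606 counts in C4-2B against 458, 687 and 546 for RC4-2B. These were 30.7, 36.2 and 34.5 CPM against 28.6, 39.2 and 32.1 CPM, and the RC4-2B libraries spread over a range that enclosed all C4-2B values. The means were 33.8 ± 2.85 and 33.3 ± 5.37 CPM (SD, n = 3 each). The log2 fold change was -0.02 (standard error 0.15, 95% interval -0.36 to 0.32, edgeR adjusted p = 0.94), which leaves room for a change of either sign. SRD5A2 (the main 5-alpha-reductase of normal prostate) had 1 count, in C4-2B replicate 3, and was not detected in the other libraries.

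AKR1C2, which reduces dihydrotestosterone to a weak androgen, showed the largest fold difference of the 5 enzymes that could be tested, at a very low level. It lies at chr10:4987400-5018031 (ENSG00000151632) and had 5, 12 and 8 counts in C4-2B and 18, 15 and 22 counts in RC4-2B. Scaled to library size these were 0.298, 0.679 and 0.455 CPM against 1.13, 0.855 and 1.29 CPM, and every RC4-2B library lay above every C4-2B library. The means were 0.478 ± 0.192 and 1.09 ± 0.221 CPM (SD, n = 3 each). RC4-2B was at 2.25 times the C4-2B level (95% interval 1.19 to 4.27), or 1.17 on the log2 scale (standard error 0.40). The unadjusted p was 0.019 and the adjusted p 0.16 with edgeR, and DESeq2 gave a log2 fold change of 1.18 with an adjusted p of 0.24, so the difference did not pass the threshold with either tool. AKR1C2 entered the test through RC4-2B, where 3 of 3 libraries had at least 10 counts, against 1 of 3 in C4-2B.

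AKR1C1 (ENSG00000187134, chr10:4963253-4983283), which reduces dihydrotestosterone and also inactivates progesterone, had 4, 5 and 6 counts in C4-2B and 6, 10 and 7 counts in RC4-2B. In raw counts the lines met at 6, and in CPM the RC4-2B libraries lay above the C4-2B libraries, with 0.342 as the highest C4-2B value and 0.375 as the lowest RC4-2B value. The ratio of pooled counts, 23 against 15, was 1.58 after scaling, with an exact 95% interval of 0.788 to 3.25, and AKR1C1 did not reach the filter of the edgeR test. DESeq2, which has no such filter before its test, gave a log2 fold change of 0.65 (standard error 0.81) and an unadjusted p of 0.42. AKR1C4, the liver form, had 1 count, in C4-2B replicate 2.

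Because reads of AKR1C1, AKR1C2 and AKR1C3 may have been exchanged, their counts were also summed. A sum does not restore reads that were left out for matching several genes. The sum was 10, 19 and 14 counts in C4-2B and 29, 27 and 32 counts in RC4-2B. No RC4-2B library overlapped a C4-2B library, a separation found in CPM in 34.1% of all tested genes. Pooled over a line, AKR1C2 gave 25 and 55 counts, AKR1C1 15 and 23, and AKR1C3 3 and 10 (C4-2B and RC4-2B). Most of the sum was thus AKR1C2, and it is not an observation separate from that gene. The summed CPM averaged 0.823 ± 0.241 (SD, n = 3) for C4-2B against 1.74 ± 0.181 (SD, n = 3) for RC4-2B, a difference of 1.12 on the log2 scale (2.17-fold). The exact two-sided permutation test over libraries gave p = 0.1, the smallest value that 3 against 3 libraries allow.

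**Figure D3:**
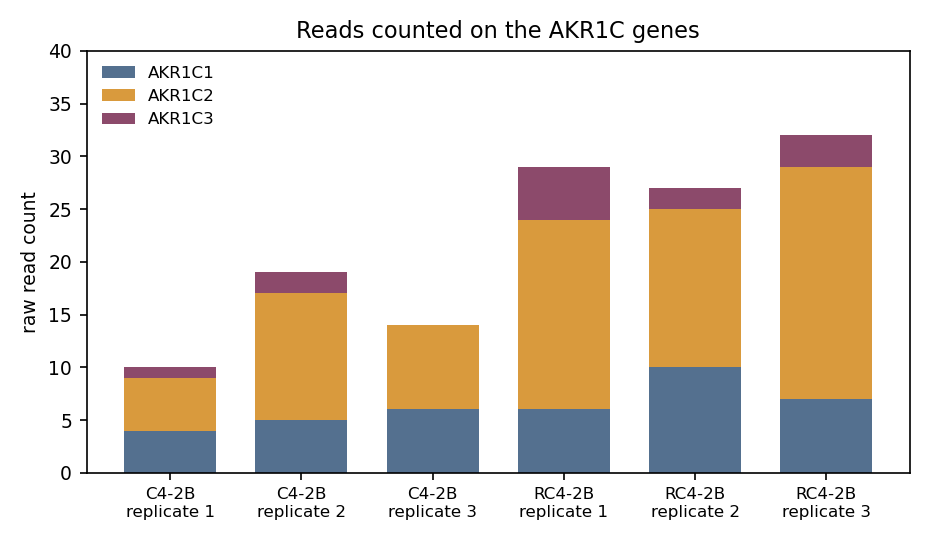
Raw read counts on AKR1C1, AKR1C2 and AKR1C3 stacked for each of the 6 libraries (vertical axis, counts). The 3 RC4-2B bars reach 27 to 32 counts against 10 to 19 in C4-2B.

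The oxidative enzymes did not differ detectably between the lines. HSD17B4 (ENSG00000133835, chr5:119452443-119637199), a peroxisomal enzyme that also degrades fatty acids, had 3564, 3980 and 3733 counts in C4-2B and 3300, 4657 and 3907 counts in RC4-2B. These were 213, 225 and 213 CPM against 206, 265 and 230 CPM, with RC4-2B replicate 1 below all C4-2B libraries and replicates 2 and 3 above them. The means were 217 ± 7.38 and 234 ± 29.8 CPM (SD, n = 3 each). The log2 fold change was 0.11 (standard error 0.12, edgeR adjusted p = 0.58), and the fold was 1.08 with a 95% interval of 0.896 to 1.30. With the GC trend of each library taken out the log2 fold change was -0.10, so its sign is not settled.

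HSD17B6 (chr12:56752161-56787790), which can regenerate dihydrotestosterone, had 45, 45 and 36 counts in C4-2B against 53, 59 and 23 for RC4-2B, or 2.68, 2.55 and 2.05 CPM against 3.31, 3.36 and 1.35 CPM. RC4-2B replicates 1 and 2 lay above all C4-2B libraries and replicate 3 below all of them. The means were 2.43 ± 0.334 and 2.68 ± 1.15 CPM (SD, n = 3 each). The log2 fold change was 0.14 (standard error 0.36, 95% interval -0.67 to 0.95, edgeR adjusted p = 0.83), and it changed sign to -0.04 without RC4-2B replicate 1 and to -0.07 without replicate 2.

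Of the 10 enzymes, 5 passed the filter on low counts, and the edgeR test called 0 of them higher and 0 lower in RC4-2B at the threshold of 0.05 on adjusted p. Across the 15054 genes tested, 1.98% were called in either direction, 1.08% higher and 0.903% lower. At an unadjusted p-value under 0.05, edgeR counted 1 of the 5 enzymes, beside 21.4% of all genes. That enzyme was AKR1C2, which entered the test through the line in which it is higher, so the tally is no support for a difference. DESeq2 called 0 of the enzymes, with 0 at an unadjusted p-value under 0.05. Over all genes it called 5.93% of those with an adjusted p, and 3349 of 29108 had an unadjusted p-value under 0.05. SRD5A1 and AKR1C2 were the tested enzymes whose lines did not overlap in CPM, a separation found in 34.1% of all genes, and the same limit holds for AKR1C2 here. The median absolute log2 fold change of the 5 enzymes was 0.14, beside 0.26 over all genes tested.

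**Figure D4:**
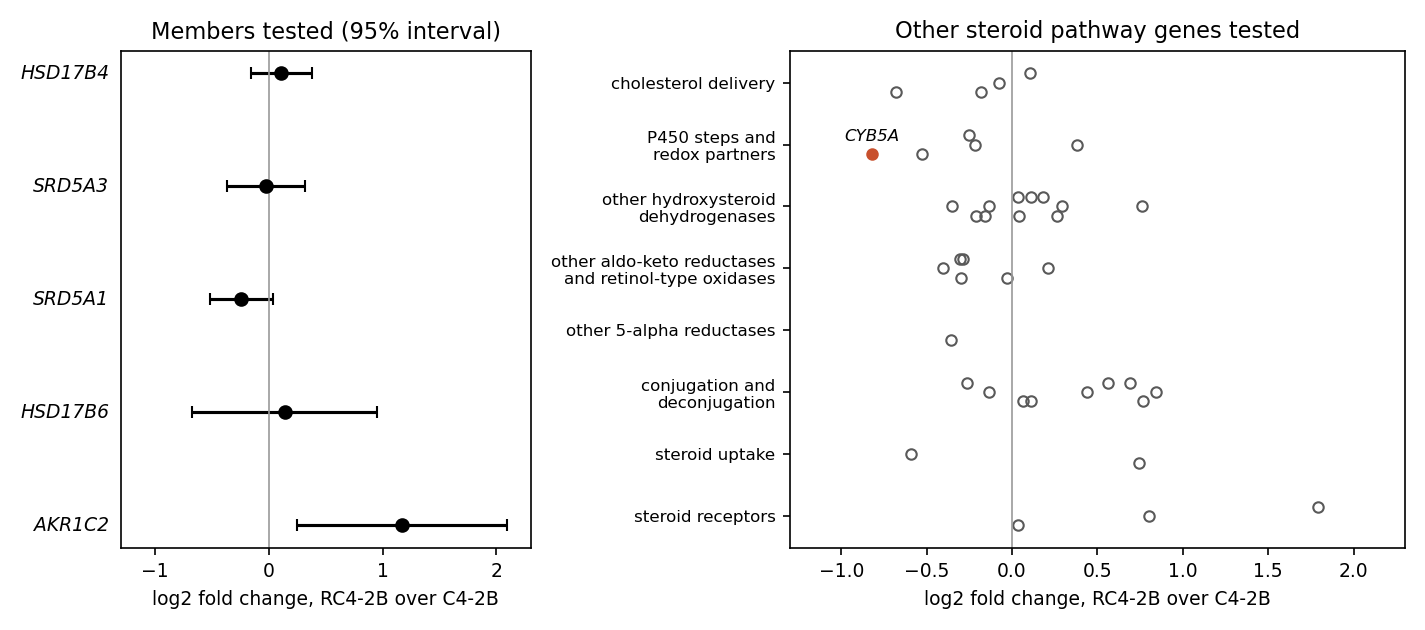
Log2 fold change of RC4-2B over C4-2B (horizontal axes) for the 5 tested enzymes with 95% intervals from edgeR (left) and for the 41 other tested genes of the steroid pathway by role, without intervals (right). The intervals of 4 enzymes include 0, and that of AKR1C2 runs from 0.25 to 2.09. AKR1C2 entered the test through RC4-2B, where it is higher, and did not pass the threshold (edgeR adjusted p = 0.16). CYB5A, filled, is the single pathway gene past edgeR's adjusted threshold.

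The rest of the steroid pathway was taken from a list of 69 genes in 8 roles, of which 41 passed the filter. The edgeR test called 0 of them higher and 1 lower in RC4-2B, beside 1.98% called over all genes, and 9 (22.0%) had an unadjusted p-value under 0.05, beside 21.4% of all genes. DESeq2 counts were taken over the whole list of 69, not only over the 41 that passed that filter. It called 2, CYB5A and the mineralocorticoid receptor gene NR3C2, beside 5.93% of all genes with an adjusted p. In DESeq2, 12 of the list had an unadjusted p-value under 0.05, beside 3349 of 29108 over all genes. Listed genes with 0 counts in every library have no DESeq2 p, so 69 is not the denominator of the 12. The 29108 also include genes under edgeR's filter, so no excess or lack is read from these counts. The median edgeR log2 fold change of the 41 was 0.03 (absolute 0.29), beside 0.01 (absolute 0.26) over all genes. With edgeR, 0 genes were called among those of cholesterol delivery (4 of 5 tested), the other hydroxysteroid dehydrogenases (11 of 15), the other aldo-keto reductases and retinol-type oxidases (6 of 12), the other 5-alpha-reductases (1 of 3), conjugation and deconjugation (9 of 13), steroid uptake (2 of 5) and the steroid receptors (3 of 6).

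The gene called was CYB5A, among 5 tested of 10 genes for the P450 steps and their redox partners. CYB5A encodes cytochrome b5, the partner that favours the step of CYP17A1 that yields dehydroepiandrosterone and that also serves lipid metabolism. Its counts were 3275, 3194 and 3202 for C4-2B against 1935, 1479 and 1885 for RC4-2B, and the mean level was 186 ± 8.02 CPM (SD, n = 3) in the parental line against 105 ± 18.9 CPM (SD, n = 3) in the subclone. The log2 fold change was -0.82 (standard error 0.14, edgeR adjusted p = 0.029; DESeq2 adjusted p = 8.12e-05). The edgeR call was lost without C4-2B replicate 1 (log2 fold change -0.79, adjusted p = 0.18), replicate 2 (-0.84, 0.14) or replicate 3 (-0.84, 0.14) and without RC4-2B replicate 3 (-0.86, 0.10). It held without RC4-2B replicate 1 (-0.93, edgeR adjusted p = 0.033) and without RC4-2B replicate 2 (-0.68, edgeR adjusted p = 9.4e-05). On chromosome 18, which carries CYB5A and was looked at after its call was seen, 171 genes with a mean log2 CPM of at least 2 had a median log2 fold change of -0.18, and of -0.31 with the GC trend of each library removed. Of 230 genes tested there 20 were called (8.7%, beside 1.98% of all genes), and 16 of these were lower. The part of that shift in the CYB5A value was not tested. CYP17A1 itself, which makes dehydroepiandrosterone, had 0 counts in all 6 libraries.

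HSD17B2, which oxidises testosterone to androstenedione, had 0 counts in C4-2B and 0, 1 and 2 counts in RC4-2B, so it stayed under the floor of 3 counts.

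Both lines carried the transcripts of prostate luminal cells, with 8 of 8 markers tested. Of these, 2 were called lower in RC4-2B, beside 0.903% of all genes. At an unadjusted edgeR p-value under 0.05 there were 4, beside 21.4% of all genes. KLK3, the gene of prostate-specific antigen, a secreted protease, fell from 974 ± 55.1 to 48.4 ± 14.9 CPM (SD over 3 libraries each, log2 fold change -4.33, edgeR adjusted p = 0.000154), and TMPRSS2, a membrane-bound serine protease, from 184 ± 11.5 to 87.2 ± 18.5 CPM (log2 fold change -1.08, edgeR adjusted p = 0.019). The summed level of the 8 markers was 3454 to 3545 CPM for C4-2B against 2366 to 2648 CPM for RC4-2B, and without KLK3 the other 7 summed to 2475 to 2596 against 2311 to 2617 CPM. KLK2 was at 238 ± 6.67 and 133 ± 49.9 CPM (edgeR adjusted p = 0.13, DESeq2 adjusted p = 0.022), and STEAP2 at 553 ± 41.9 and 732 ± 182 CPM (edgeR adjusted p = 0.23). FOLH1, KRT8, KRT18 and SLC45A3 had edgeR adjusted p-values of 0.82, 0.80, 0.79 and 0.38. The 4 basal markers summed to 0.239 to 0.968 CPM and 0.285 to 0.50 CPM, with KRT5 and TP63 at 0 in all libraries and none tested. Of 7 stromal, endothelial and immune markers 2 were tested and 0 called by edgeR, with 1 (VWF, lower) at an unadjusted p-value under 0.05 and called by DESeq2 (adjusted p = 0.016). The markers summed to 28.7 to 33.6 CPM for C4-2B and 26.4 to 41.8 CPM for RC4-2B. Most of this was COL1A1, at 23.3 ± 2.02 and 28.7 ± 7.28 CPM, and VWF, at 7.69 ± 0.390 and 4.29 ± 0.720 CPM (SD, n = 3 each). These 2 markers were therefore present in both lines, whereas DCN, PECAM1 and COL1A2 were at 0 in all libraries.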

How the data were processed

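RNAseq was performed on 3 C4-2B and 3 RC4-2B libraries, grouped by the sample labels. The authors aligned reads to GRCh38 by STAR. The deposited counts are whole, unnormalized read numbers per gene, and the deposited FPKM values equal those counts over gene length and a per-library total (17878222 to 19817304). The counter, its use of strand and multi-mapping reads and the annotation release are not given in the sources used here, so paralogs and overlapping genes are uncertain.

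The count test was run with edgeR 4.0.16 under R 4.3.3 (TMM scaling, filterByExpr with a minimum of 10 counts, glmQLFit and glmQLFTest, cell line as the only term, Benjamini-Hochberg adjustment over 15054 genes, threshold 0.05). CPM values are TMM-scaled. Standard errors were derived from the log2 fold change and the F statistic. DESeq2 1.42.0 gave an adjusted p for 15221 genes. On simulated data, 183 of 200 genes changed by 2 on the log2 scale among 15054 were recovered, and 15 of 14601 unchanged genes were called. The simulated counts were drawn gene by gene, with no GC trend and no library that stands apart. Their change of 2 also exceeds that of every tested enzyme (at most 1.17, for AKR1C2). The simulation thus checks that the code runs correctly and does not give rates for these data. No 2 libraries of a line were copies, chi-square statistics per gene being 3.38 to 65.4. Intervals and floors of counts cover counting error only, reads without molecular identifiers not being independent molecules.

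The 10 enzymes and all lists were chosen with earlier results of these data known. Named genes were the 10 enzymes, other listed genes past the threshold, AKR1C4, SRD5A2, CYP17A1, HSD17B2 and luminal markers, and 1 gene that the rule covers is not reported here. Others were named after their values were seen. Alternatives were DESeq2, RLE scaling, no filter, leaving out each library, a block for replicate number, limma 3.58.1 on log2 FPKM with a pseudocount of 1 or 0.1 (keeping genes that reach an FPKM of 1 in 3 or more libraries), limma without that filter, and a GC offset per library (lowess, span 0.2, GC content known for 99.6% of tested genes).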

Additional observations from a re-analysis of the deposited data

How the results depend on the processing

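Over 14 settings, 0 of the enzymes were called higher in any by the tool run there, and 0 lower in 13. The GC offset called 1 lower, SRD5A1, at a log2 fold change of -0.38. Of 68 enzyme values under these settings 61 kept their direction and their side of the threshold. Signs turned for HSD17B4 with the GC offset (-0.10), for HSD17B6 without RC4-2B replicate 1 (-0.04) or 2 (-0.066), and for SRD5A3 without C4-2B replicate 2 (0.03), RC4-2B replicate 1 (0.079) or RC4-2B replicate 3 (0.0036). The cause was not tested. Leaving out 1 library at a time gave 0.93 to 1.51 for AKR1C2 (edgeR adjusted p 0.072 to 0.49), -0.31 to -0.20 for SRD5A1 (0.057 to 0.53), 0.0074 to 0.19 for HSD17B4, -0.07 to 0.46 for HSD17B6, -0.15 to 0.08 for SRD5A3 and 0.91 to 1.33 for the AKR1C sum. AKR1C2 fell under the FPKM filter of 2 limma settings, and was at 0.11 (limma adjusted p = 0.30) on the log2(FPKM + 1) scale without it, a scale that understates the change of low genes.

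Genes called higher and lower were 162 and 136, against 500 and 402 with DESeq2, 604 and 646 without the filter, 46 and 58 with limma on log2(FPKM + 1), 39 and 47 with a pseudocount of 0.1, 13 and 23 with limma unfiltered, and 654 and 490 with the GC offset. Leaving out 1 library gave 13 to 1000 higher and 31 to 925 lower, the largest counts without RC4-2B replicate 2. Of the other pathway genes, 1 was called higher with DESeq2, 1 without the filter and 2 with the GC offset (0 to 2 leaving out 1 library), and 2 were called lower without the filter and 0 in the 3 limma settings (0 to 3 leaving out 1 library). CYB5A passed in 7 of 14 settings. RLE scaling moved none of these counts by over 1.5 times.

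With the replicate number as a block, 55 genes were called higher and 74 lower. Deviations of same-numbered libraries correlated at 0.39, 0.22 and -0.09, and C4-2B replicate 3 correlated best with RC4-2B replicate 2, so the numbers were not taken to pair the libraries. Under the block AKR1C2 was at 1.19 (edgeR adjusted p = 0.20), and no enzyme changed its call.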

Other observations

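Genes of the UGT2B family, whose enzymes glucuronidate androgens, varied within C4-2B. They were chosen after their values were seen. In each of the 5 UGT2B genes tested, C4-2B replicate 3 was the highest C4-2B library. These are related genes on chromosome 4, and how reads matching several genes were counted is not given. They may therefore share reads and are not 5 separate observations. UGT2B11 had 8, 18 and 95 counts in C4-2B replicates 1 to 3 and 58, 68 and 63 counts in RC4-2B. UGT2B28 had 5, 7 and 39 counts against 25, 26 and 22, and UGT2B10 had 0, 2 and 18 counts against 15, 14 and 6. UGT2B15 had 138, 160 and 404 counts against 340, 559 and 265, and UGT2B17 had 60, 75 and 144 against 119, 167 and 81. In CPM, replicate 3 was 2.09 (UGT2B17) to 7.23 (UGT2B11) times the mean of C4-2B replicates 1 and 2 in the 4 genes other than UGT2B10, whose counts in replicates 1 and 2 lie under the floor of 3. None of the 5 passed the edgeR threshold between the lines.

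Among the steroid receptor genes, a pair was also named after the values were seen. PGR, the progesterone receptor, had 4, 4 and 3 counts in C4-2B against 11, 15 and 12 for RC4-2B, and its log2 fold change was 1.79 (edgeR adjusted p = 0.070). It entered the test through RC4-2B, where 3 of 3 libraries had at least 10 counts, against 0 of 3 in C4-2B. The separation of its counts is therefore no support for a difference. Without the filter on low counts the log2 fold change of PGR was 1.79 (edgeR adjusted p = 0.083). NR3C2, the mineralocorticoid receptor, had a log2 fold change of 0.80 (edgeR adjusted p = 0.080), and passed the threshold with DESeq2 (adjusted p = 0.019). Over the settings tried its adjusted p ranged from 0.016 to 0.35 and that of PGR from 0.049 to 0.38.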
